A study of Homo sapiens with 4 samples.

Results

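A set of 36 genes that make, take up, move and export sterols was examined in T24 and 5637, established human bladder cancer cell lines, after 6 h with the steroidal saponin protodioscin or without it. Protodioscin is a plant compound with a steroid skeleton that carries sugar chains. The genes were chosen by name and looked up by Ensembl ID, and all 36 were among the 60617 gene IDs of the deposited table. They fall into 5 steps, with 8 enzymes of the mevalonate part, 12 enzymes of the sterol part, 5 genes of SREBP control, 5 of sterol uptake and transport, and 6 for the LXR receptors and their targets. The mRNA of 4 libraries was sequenced, 1 from each group: T24 with 60 µM protodioscin, untreated T24, 5637 with 70 µM protodioscin and untreated 5637. All cultures grew in RPMI medium with fetal bovine serum, which brings in cholesterol in lipoproteins. The labels name no vehicle for the untreated cultures. The doses are in µM in the sample titles and in mM, with the same numbers, in the treatment text, and the unit of the titles is used. The 2 lines received different doses, so line and dose cannot be told apart where their responses differ.

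Cells build cholesterol from acetyl-CoA. Enzymes of the mevalonate part make isoprenoid units, and enzymes of the sterol part join these into squalene, close it into lanosterol and trim the product to cholesterol. When sterol in the endoplasmic reticulum is low, SCAP carries the SREBP transcription factors to the Golgi, where they are cut and freed to switch on these enzymes. INSIG proteins hold SCAP back when sterol is plentiful. Oxidised sterols activate the LXR nuclear receptors, which raise sterol export.

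The promoters of these genes are known for sterol regulatory elements and for the CCAAT boxes bound by NF-Y, which works beside SREBP. RefSeq promoter windows (GRCh38.p14, 250 bases before to 50 bases after a transcript start) were matched for 32 of the 36 genes, with 44 windows in all, and ACAT2, FDFT1, SQLE and ABCG1 were not matched. The letters CCAAT, read on both strands, were in 23 of the 32 genes (71.9%), against 43.7% of 9829 expressed genes (1 FPKM or above in 2 libraries) and 39.7% of all 27305 genes with a window. Among the matched enzymes of the mevalonate and sterol parts, 14 of 17 held CCAAT (82.4%). At least 2 matches were found in 15 of the 32 genes (46.9%), against 16.6% of the 9829 genes. The sterol regulatory element letters TCACNCCAC were in 1 of the 32 genes, SREBF2 (3.13%, against 1.48% of the 9829 genes). The E-box letters CACGTG were in 5 genes (15.6%, against 12.7%), namely LSS, SC5D, SCAP, INSIG1 and ABCA1. The LXR repeat, AGGTCA in direct repeat with 4 bases between, was in 0 of the 32 genes, against 0.0102% of the 9829 genes. Such a match describes letters and does not show a bound site, and a window without a match says nothing of the factor.

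The 250 bases before the start are printed for INSIG1, IDI1, STARD4 and MSMO1, and for SREBF2, the gene with the sterol regulatory element letters. The first 4 were picked from the 13 genes below 0 in T24 and above 0 in 5637, and all 4 hold CCAAT. PMVK and INSIG2, also among the 13, had windows without CCAAT. The choice thus says nothing of a link between these letters and direction. For IDI1, 1 of 3 windows is shown. Capitals mark CCAAT, which reads ATTGG where the match is on the other strand, and also CACGTG in INSIG1 and TCACCCCAC in SREBF2. The INSIG1 window is chr7:155297628-155297877 on the plus strand, IDI1 chr10:1048887-1049136 on the minus strand, STARD4 chr5:111512536-111512785 on the minus strand, MSMO1 chr4:165327419-165327668 on the plus strand and SREBF2 chr22:41832855-41833104 on the plus strand. In IDI1 the letters CCAATTGG hold 2 overlapping matches, 1 on each strand, and MSMO1 holds 4 separate CCAAT matches.
INSIG1: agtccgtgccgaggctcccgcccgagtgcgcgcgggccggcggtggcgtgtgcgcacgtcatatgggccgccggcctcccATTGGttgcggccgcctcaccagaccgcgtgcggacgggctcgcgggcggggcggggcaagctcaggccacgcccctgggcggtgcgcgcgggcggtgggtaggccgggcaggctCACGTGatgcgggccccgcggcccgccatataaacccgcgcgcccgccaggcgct
IDI1: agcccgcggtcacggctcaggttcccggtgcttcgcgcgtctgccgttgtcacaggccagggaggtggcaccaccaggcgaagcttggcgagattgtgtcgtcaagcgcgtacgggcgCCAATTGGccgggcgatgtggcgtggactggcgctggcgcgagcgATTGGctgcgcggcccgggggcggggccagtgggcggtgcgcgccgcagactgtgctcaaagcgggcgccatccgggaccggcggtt
STARD4: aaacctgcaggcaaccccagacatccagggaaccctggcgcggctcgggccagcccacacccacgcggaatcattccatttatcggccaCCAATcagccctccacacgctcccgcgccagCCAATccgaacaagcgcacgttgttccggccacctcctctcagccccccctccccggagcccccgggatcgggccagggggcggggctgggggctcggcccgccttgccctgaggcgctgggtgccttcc
MSMO1: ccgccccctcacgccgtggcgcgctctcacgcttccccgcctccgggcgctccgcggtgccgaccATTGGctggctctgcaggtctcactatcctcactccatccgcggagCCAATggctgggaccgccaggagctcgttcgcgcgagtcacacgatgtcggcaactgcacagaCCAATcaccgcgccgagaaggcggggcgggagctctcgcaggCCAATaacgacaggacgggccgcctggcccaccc
SREBF2: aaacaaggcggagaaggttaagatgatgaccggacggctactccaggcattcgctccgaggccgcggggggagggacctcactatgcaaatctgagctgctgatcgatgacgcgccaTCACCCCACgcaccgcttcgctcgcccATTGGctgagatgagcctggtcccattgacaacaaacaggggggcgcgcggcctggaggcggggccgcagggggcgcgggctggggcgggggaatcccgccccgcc

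**Figure D1:**
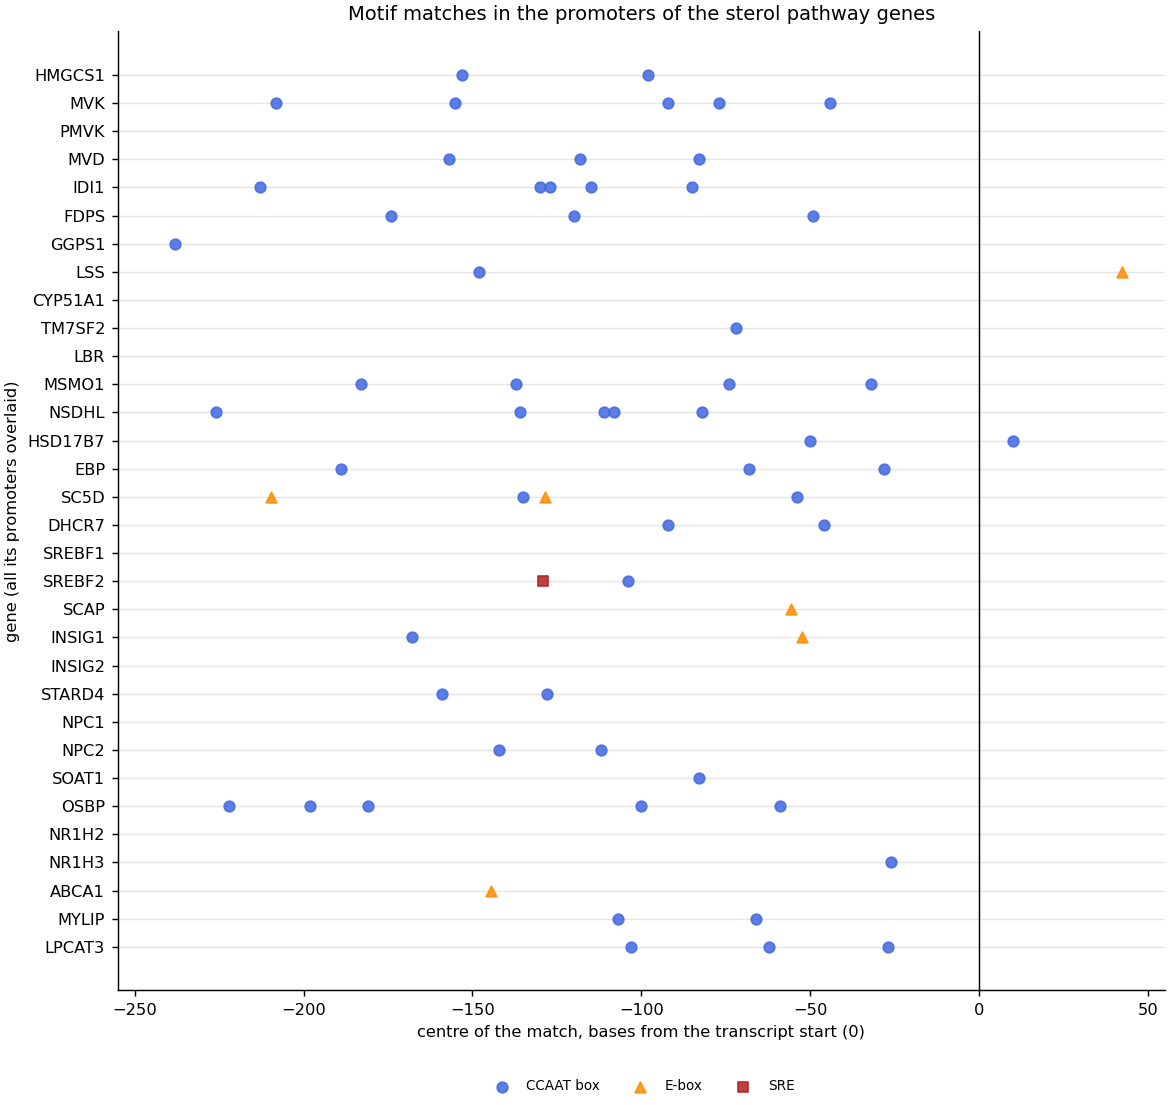
Position of each motif match in the promoter windows of the 32 matched genes, in bases from the transcript start (0), with all windows of a gene overlaid; circles are CCAAT, triangles CACGTG and the square TCACNCCAC, and the LXR repeat had no match. CCAAT matches were found in 23 genes and lay before the start except for 1 in HSD17B7.

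The libraries had summed FPKM of 322821 to 348577 and 11941 to 12405 genes at 1 FPKM or more. FPKM corrects for transcript length and library size, so levels can be set beside each other between genes. For the same reason the sums do not measure library size. What 1 read is worth gave relative depths of 1.28 and 1 for treated and untreated T24, and of 1.21 and 1.46 for treated and untreated 5637. Of 15 urothelial and epithelial markers, 8 reached 1 FPKM in both T24 libraries and 11 in both 5637 libraries. The basal marker KRT5 was listed at 0 in both T24 libraries, against 283 and 331 FPKM in treated and untreated 5637. TP63, another basal marker, was listed at 0 and 0.0232 FPKM in treated and untreated T24, against 19.2 and 27.9 FPKM in treated and untreated 5637. The urothelial marker KRT20 was below 1 FPKM in all 4 libraries. FOXA1, another of the 15, was higher in T24, at 19.4 and 19.9 FPKM in treated and untreated T24 and at 4.78 and 4.84 FPKM in treated and untreated 5637. Of 13 markers of blood, endothelial, fibroblast and liver cells, 0 or 1 reached 1 FPKM in a library, with summed levels of 2.72 and 3.82 FPKM in treated and untreated T24 and 7.82 and 7.20 FPKM in treated and untreated 5637. These were CDH5, at 1.57 FPKM in untreated T24, and COL1A1, at 7.52 and 6.81 FPKM in treated and untreated 5637.

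Transcripts of all 20 synthesis enzymes were present in both lines. The 36 genes together took between 0.181% and 0.189% of the summed FPKM in each library. All 36 were at 1 FPKM or more in 5637, and 34 were in T24, where the exporters ABCA1 and ABCG1 were below that level. FDPS, the enzyme that makes farnesyl diphosphate, was the most abundant of them in T24, with 61.6 FPKM with protodioscin and 65.7 FPKM untreated. NPC2, the soluble lysosomal cholesterol carrier, was the most abundant in 5637, with 96.1 FPKM with protodioscin and 92.5 FPKM untreated. The median gene was at 14.2 FPKM in treated and 13.3 FPKM in untreated T24, and at 12.4 FPKM in treated and 12.0 FPKM in untreated 5637. Across the 36 genes, the untreated levels of T24 and 5637 on the log2(FPKM + 1) scale had a Pearson r of 0.86 and a Spearman rho of 0.92, a description over genes that share the same 2 libraries.

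**Figure D2:**
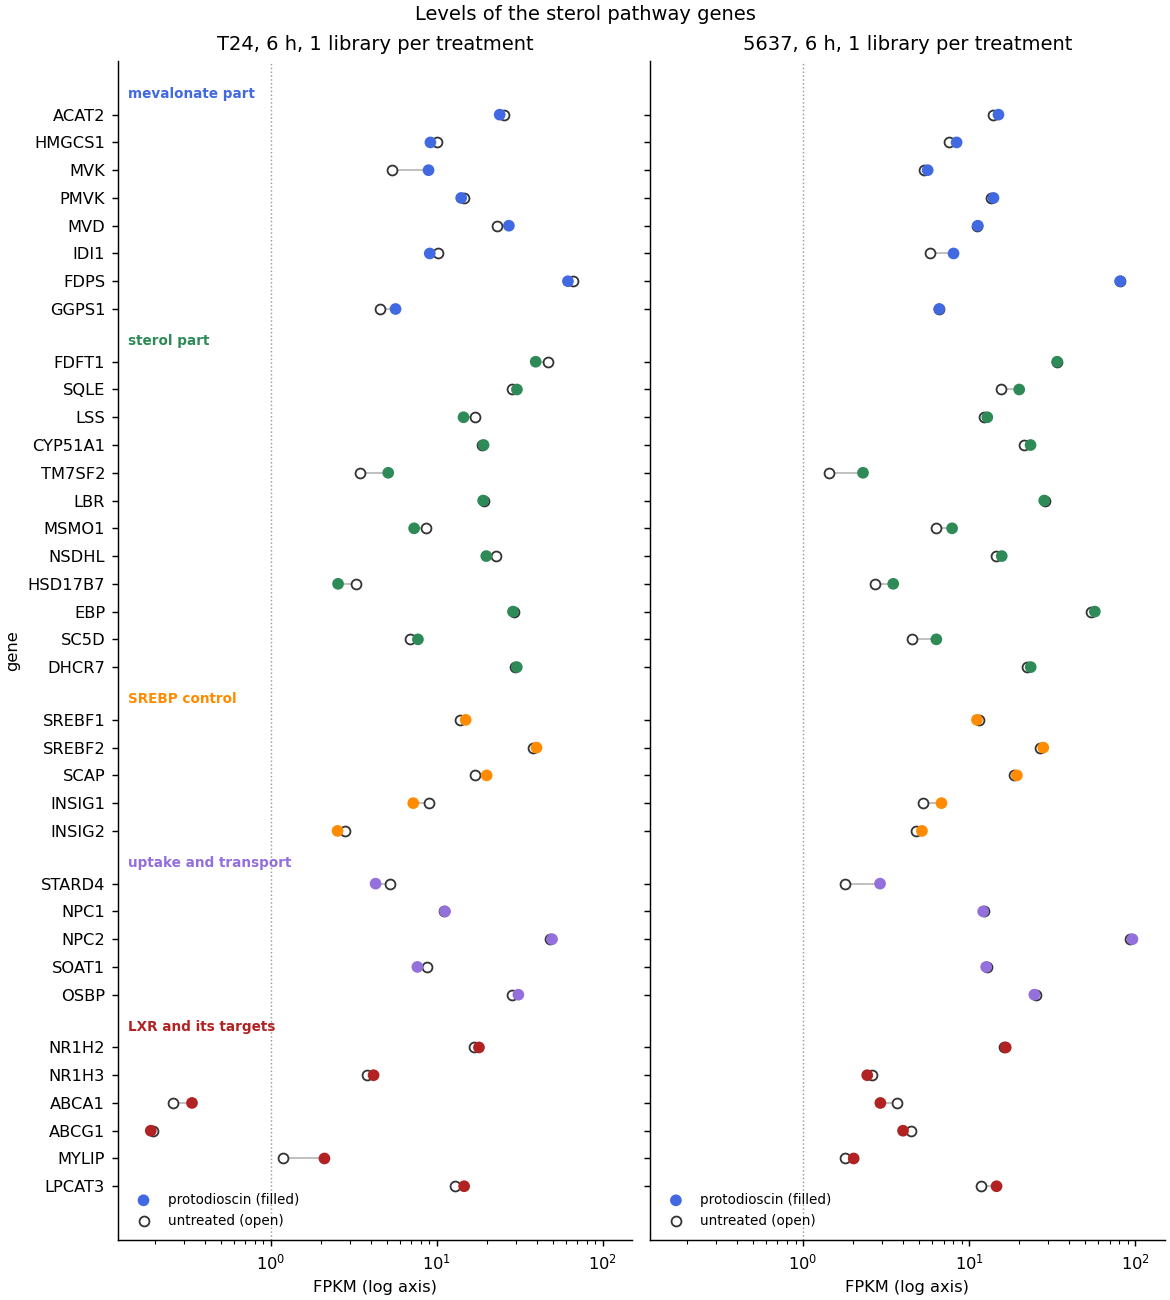
Level of each of the 36 genes in FPKM on a log axis, in T24 (left) and 5637 (right), grouped by step; filled points are the protodioscin libraries, open points the untreated ones, 1 library each, and the dotted line is 1 FPKM. Most pairs of points lie close together, and ABCA1 and ABCG1 stand below the dotted line in T24 and at 2.92 to 4.44 FPKM in 5637.

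Within each line, the treated and the untreated library were compared as the difference in log2(FPKM + 1), treated minus untreated, for genes that reached 1 FPKM with or without protodioscin. There was 1 library per group, so these differences have no replicate check and no test, and a size of 0.25 was used only to sort them. In bulk RNA, fewer cells with a transcript and less of it per cell cannot be told apart. No gene of the set differed by 2-fold in either line: 0 of 34 genes compared in T24 and 0 of 36 in 5637 reached that size, against 0.205% of all genes higher and 0.279% lower in T24, and 0.174% higher and 0.214% lower in 5637. Of the 20 synthesis enzymes, 12 were lower with protodioscin in T24 (against 44.0% of all genes) and 18 were higher with it in 5637 (against 61.5%). Of the 12 that were lower in T24, 10 were higher in 5637 (83.3%, against 54.8% of all genes that were lower in T24). PMVK and FDPS among these were below 0 in 5637 with median-ratio scaling. These are counts of signs, and most of the differences lay within estimated counting error in at least one line. FDFT1, LSS and NSDHL were the enzymes lower in T24 by more than 1.96 standard errors of counting. None of them passed that limit in 5637, so by this estimate no enzyme passed it in opposite directions in the lines. The estimate rests on an annotated transcript length for each gene.

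In T24, 18 of the 34 genes were above 0 (52.9%, against 56.0% of all 12193 genes compared) and the median difference was 0.023, against 0.025 for all genes. A difference of 0.25 or more was found for 4 genes, MVK, GGPS1, TM7SF2 and MYLIP (11.8%, against 8.00% of all genes). INSIG1 and HSD17B7 were the 2 genes at -0.25 or less (5.88%, against 8.58%). With a pseudocount of 5, which shrinks the differences of low genes, 2 genes were at 0.25 or more (against 2.25% of all genes) and 0 at -0.25 or less. Among the synthesis enzymes, 12 of 20 were below 0 (60%, against 44.0% of all genes), their median was -0.039, and their FPKM summed to 383 with protodioscin and 392 untreated.

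In 5637, 27 of 36 genes were above 0 (75%, against 61.5% of all 12635 genes compared), and the median difference was 0.066, against 0.043 for all genes. The 9 genes at 0.25 or more were IDI1, SQLE, TM7SF2, MSMO1, HSD17B7, SC5D, INSIG1, STARD4 and LPCAT3 (25%, against 9.31% of all genes). ABCA1 was the 1 gene at -0.25 or less (2.78%, against 6.40%). Of the 20 synthesis enzymes, 18 were above 0 (90%), 6 were at 0.25 or more (30%), their median was 0.091, and their FPKM summed to 384 with protodioscin and 362 untreated. Scaling the libraries by median ratios shifted treated against untreated 5637 by -0.062 on the log2 scale: 20 of 36 genes and 14 of 20 enzymes were then above 0, against 46.8% of all genes, and 6 genes were at 0.25 or more. With a pseudocount of 5, 2 of 36 were (against 2.29% of all genes).

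**Figure D3:**
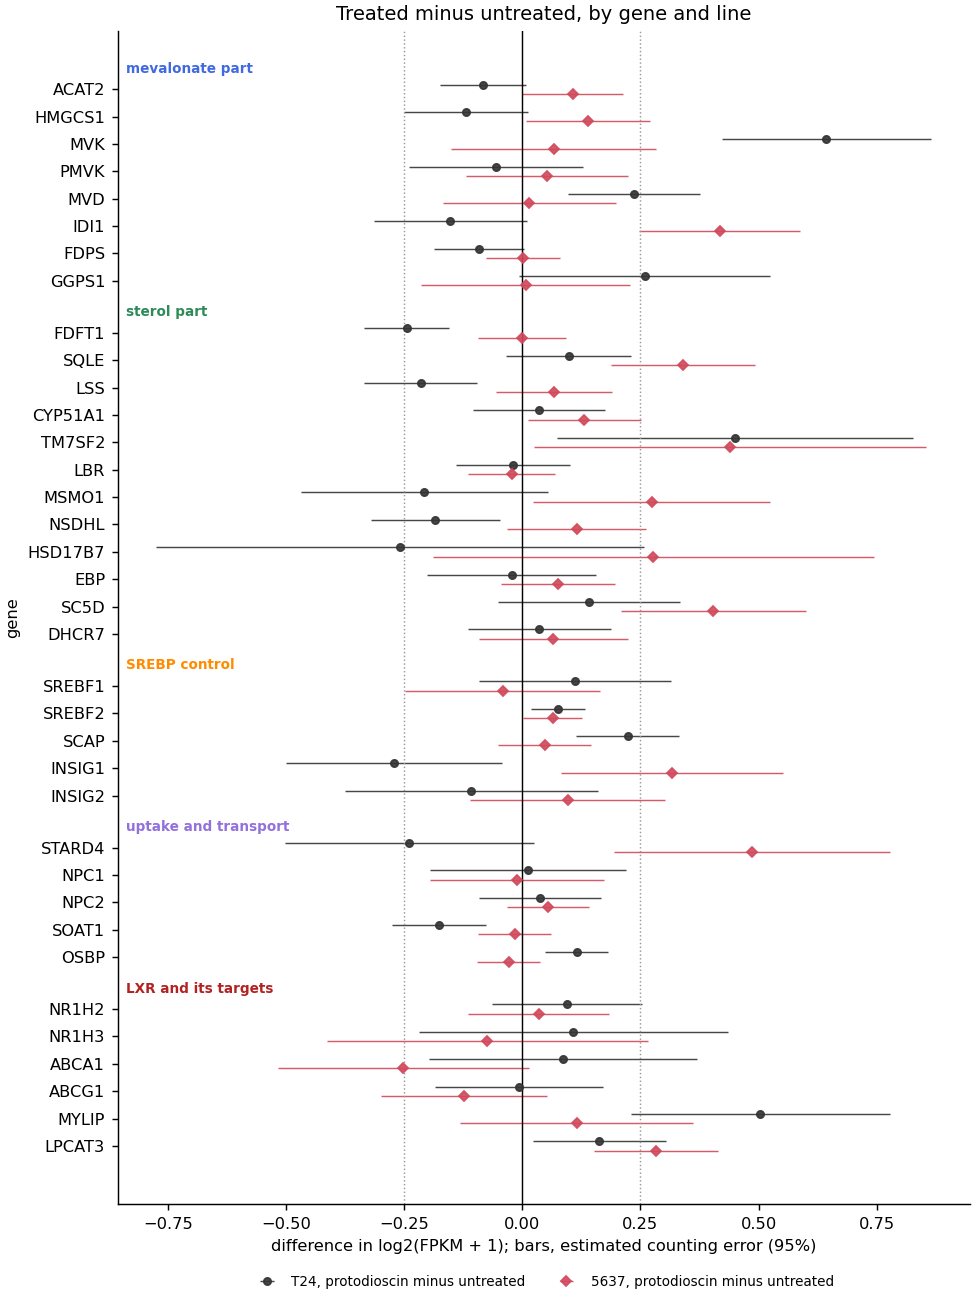
Treated minus untreated difference in log2(FPKM + 1) for each of the 36 genes, with T24 as circles and 5637 as diamonds; bars are 95% intervals for estimated counting error alone, and dotted lines mark -0.25 and 0.25. STARD4, IDI1, INSIG1, HSD17B7 and MSMO1 lie left of 0 in T24 and right of 0.25 in 5637, and MVK and MYLIP reach 0.64 and 0.50 in T24.

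The mevalonate part had a median of -0.069 in T24, with 3 of 8 enzymes above 0, and of 0.059 in 5637, with 8 of 8 above 0, of which PMVK, MVD, FDPS and GGPS1 were below 0 with median-ratio scaling. ACAT2, the cytosolic thiolase that joins acetyl-CoA, was at 23.9 FPKM with protodioscin and 25.4 FPKM untreated in T24, and at 15.0 and 13.9 FPKM in treated and untreated 5637. HMGCS1, the synthase of the HMG-CoA used by the pathway, was at 9.15 FPKM in treated and 10.0 FPKM in untreated T24, against 8.40 FPKM in treated and 7.53 FPKM in untreated 5637. Both were thus a little lower with protodioscin in T24 (-0.083 and -0.12) and a little higher with it in 5637 (0.11 and 0.14). Exons of ACAT2 overlap those of TCP1 on the opposite strand, so reads could be mixed and its value is uncertain. TCP1 was at 103 and 110 FPKM in treated and untreated T24 and at 163 and 163 FPKM in treated and untreated 5637.

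IDI1 (ENSG00000067064, chr10:1039152-1049170), the isomerase that readies isoprenoid units for joining, was at 9.07 FPKM with protodioscin and 10.2 FPKM untreated in T24. In 5637 it was at 8.04 FPKM with protodioscin and 5.77 FPKM untreated. The T24 pair differed by -0.15 and the 5637 pair by 0.42, the largest difference of this part in 5637. MVK (ENSG00000110921, chr12:109573255-109598117), mevalonate kinase, showed the reverse order of lines, with 8.92 FPKM in treated and 5.35 FPKM in untreated T24 (0.64) and 5.62 FPKM in treated and 5.32 FPKM in untreated 5637 (0.066). It had the largest T24 difference among the 36 genes. Its exons overlap those of MMAB on the opposite strand, and the library kit does not mark strand, so the 2 genes' reads could be mixed. MMAB was at 8.33 and 8.36 FPKM in treated and untreated T24 and at 5.67 and 5.24 FPKM in treated and untreated 5637.

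MVD, the decarboxylase after the kinases, was at 27.2 FPKM in treated and 22.9 FPKM in untreated T24 (0.24) and at 11.3 and 11.1 FPKM in treated and untreated 5637 (0.014). PMVK, phosphomevalonate kinase, and FDPS differed by less than 0.1 in each line, at -0.056 and -0.091 in T24 and at 0.052 and 0.0018 in 5637. GGPS1, which makes geranylgeranyl diphosphate for protein prenylation, was at 5.64 FPKM with protodioscin and 4.55 FPKM untreated in T24, and at 6.59 and 6.56 FPKM in treated and untreated 5637. GGPS1 shares exons on the same strand with TBCE, at 7.10 FPKM in treated and 2.66 FPKM in untreated T24, so its value is uncertain.

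The sterol part had a median of -0.021 in T24, with 5 of 12 enzymes above 0, and of 0.12 in 5637, with 10 of 12 above 0 and 5 at 0.25 or more. At its entry, FDFT1, squalene synthase, was at 39.4 FPKM with protodioscin and 46.8 FPKM untreated in T24 (-0.24), and at 33.8 and 33.8 FPKM in treated and untreated 5637, a difference near 0. SQLE, the squalene epoxidase, was at 30.4 FPKM in treated and 28.3 FPKM in untreated T24 (0.10), and at 20.0 FPKM in treated and 15.6 FPKM in untreated 5637 (0.34). LSS, which closes the ring to lanosterol, was at 14.5 and 17.0 FPKM in treated and untreated T24 (-0.22) and at 12.8 and 12.2 FPKM in treated and untreated 5637 (0.067). So the enzymes before and after SQLE were lower with protodioscin in T24, and SQLE was not.

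The enzymes that remove the C4 methyl groups of lanosterol had differences of opposite sign in the lines, though none beyond the estimated counting error in both. MSMO1 (ENSG00000052802, chr4:165327623-165343160), the C4 methyl oxidase, was at 7.30 FPKM with protodioscin and 8.59 FPKM untreated in T24 (-0.21), and at 7.88 FPKM with protodioscin and 6.35 FPKM untreated in 5637 (0.27). NSDHL, the dehydrogenase that acts with it, was at 19.8 and 22.7 FPKM in treated and untreated T24 (-0.18) and at 15.7 and 14.4 FPKM in treated and untreated 5637 (0.11). HSD17B7, the reductase of the same complex, was at 2.54 and 3.24 FPKM in treated and untreated T24 (-0.26) and at 3.49 and 2.70 FPKM in treated and untreated 5637 (0.28). These 3 enzymes were each below 0 in T24 and above 0 in 5637. HSD17B7 is a low gene, and its estimated standard error from counting alone was 0.26 in T24 and 0.24 in 5637, about as large as its differences. CYP51A1, the C14 demethylase, was above 0 in both lines, at 19.1 and 18.6 FPKM in treated and untreated T24 (0.035) and at 23.4 and 21.3 FPKM in treated and untreated 5637 (0.13).

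The sterol part holds 2 C14 reductases, TM7SF2 and LBR, and they differed. TM7SF2 (ENSG00000149809, chr11:65111845-65116384) was at 5.10 FPKM with protodioscin and 3.46 FPKM untreated in T24, and at 2.29 FPKM with protodioscin and 1.43 FPKM untreated in 5637. It was the 1 gene of the set at 0.25 or more in both lines (0.45 in T24 and 0.44 in 5637). TM7SF2 shares exons on the same strand with the far more abundant VPS51, so its value is uncertain, and VPS51 was lower with protodioscin in both lines, at 38.0 and 41.1 FPKM in treated and untreated T24 and at 43.6 and 51.8 FPKM in treated and untreated 5637. LBR, the lamin B receptor with the same activity, differed by -0.019 in T24 and -0.022 in 5637.

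Of the last steps, SC5D, the C5 desaturase, was at 7.70 FPKM with protodioscin and 6.89 FPKM untreated in T24 (0.14), and at 6.34 FPKM with protodioscin and 4.55 FPKM untreated in 5637 (0.40). DHCR7, the C7 reductase, and EBP, the isomerase of the sterol ring, differed little, by 0.036 and -0.022 in T24 and by 0.065 and 0.076 in 5637.

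In SREBP control, INSIG1 (ENSG00000186480, chr7:155297776-155310235) had the largest difference in size of these genes in each line. INSIG1, which retains SCAP in the endoplasmic reticulum and is itself an SREBP target, was at 7.21 FPKM with protodioscin and 8.91 FPKM untreated in T24 (-0.27), and at 6.80 FPKM with protodioscin and 5.26 FPKM untreated in 5637 (0.32). INSIG2, its paralog, was at 2.53 and 2.80 FPKM in treated and untreated T24 (-0.11), and at 5.19 and 4.79 FPKM in treated and untreated 5637 (0.10). The ratio of INSIG1 to INSIG2 was 2.86 in treated and 3.18 in untreated T24, and 1.31 in treated and 1.10 in untreated 5637. So INSIG1 was the more abundant paralog in all 4 libraries, by more in T24.

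The transcription factors had small differences, and SCAP a larger one in T24. SCAP in T24 and SREBF2 in both lines lay beyond 1.96 estimated standard errors of counting. SREBF2 was at 39.8 and 37.8 FPKM in treated and untreated T24 (0.075) and at 27.9 and 26.6 FPKM in treated and untreated 5637 (0.064). SREBF1, whose products act more on fatty acid genes, was at 14.9 and 13.7 FPKM in treated and untreated T24 (0.11) and at 11.1 and 11.5 FPKM in treated and untreated 5637 (-0.042). Exons of SREBF1 overlap those of the more abundant RAI1 on the opposite strand, so its value is uncertain. SREBF2 was 2.32 to 2.75 times as abundant as SREBF1 in the 4 libraries. SCAP was at 20.0 and 17.0 FPKM in treated and untreated T24 (0.22) and at 19.4 and 18.7 FPKM in treated and untreated 5637 (0.047).

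Of the uptake and transport genes, STARD4 had the largest difference in 5637 among all 36. STARD4 (ENSG00000164211, chr5:111496033-111512590), a soluble carrier that moves sterol between membranes and is an SREBP target, was at 4.28 FPKM with protodioscin and 5.23 FPKM untreated in T24 (-0.24). In 5637 it was at 2.90 FPKM with protodioscin and 1.79 FPKM untreated (0.49), so its lines differed in direction. SOAT1, which makes cholesteryl esters for storage, was at 7.64 and 8.76 FPKM in treated and untreated T24 (-0.18) and at 12.6 and 12.8 FPKM in treated and untreated 5637 (-0.016). OSBP, which exchanges sterol at Golgi contact sites, differed by 0.12 in T24 and -0.029 in 5637. The lysosomal exit pair NPC1 and NPC2 differed by 0.012 and 0.037 in T24 and by -0.011 and 0.054 in 5637.

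Of the 6 LXR genes, 4 were compared in T24 and all 4 were above 0 (against 56.0% of all genes). Their T24 median was 0.14, against 0.025 for all genes. In 5637, 3 of the 6 were above 0 (50%, against 61.5% of all genes), of which NR1H2 was below 0 with TPM or median-ratio scaling. Their 5637 median was -0.020, against 0.043 for all genes. The receptors NR1H2 (LXR beta) and NR1H3 (LXR alpha) differed by 0.10 and 0.11 in T24 and by 0.034 and -0.074 in 5637, and NR1H2 was 4.31 to 6.82 times as abundant as NR1H3. Exons of NR1H3 overlap those of the more abundant ACP2 on the opposite strand, so its value is uncertain. ABCA1 (ENSG00000165029, chr9:104781002-104928237), which loads cholesterol onto apolipoproteins, was at 0.336 and 0.258 FPKM in treated and untreated T24, and at 2.92 FPKM with protodioscin and 3.66 FPKM untreated in 5637 (-0.25). ABCG1 (ENSG00000160179, chr21:42199689-42297244), a second exporter, was at 0.190 and 0.195 FPKM in treated and untreated T24, and at 3.99 and 4.44 FPKM in treated and untreated 5637 (-0.12). Both exporters were thus lower with protodioscin in 5637, by no more than the estimated counting error allows at 95%. ABCA1 passed that limit with median-ratio scaling. MYLIP, the ubiquitin ligase that degrades lipoprotein receptors, was at 2.11 FPKM with protodioscin and 1.19 FPKM untreated in T24 (0.50) and at 2.01 and 1.78 FPKM in treated and untreated 5637 (0.12). LPCAT3, a phospholipid acyltransferase, was higher with protodioscin in both lines, at 14.6 and 12.9 FPKM in treated and untreated T24 (0.16) and at 14.6 and 11.8 FPKM in treated and untreated 5637 (0.28).

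Counting error was estimated from what 1 read was worth and from the median length of a gene's annotated coding transcripts. That length was 1.03 kb for MSMO1 and 1.54 kb for ABCA1. A gene read mainly from a longer transcript would have a smaller error than estimated, and could then pass the limit. The estimated standard error had a median of 0.082 over the 36 genes and both lines. By that measure alone, 13 of 34 differences in T24 lay beyond 1.96 standard errors (38.2%, against 32.1% of 11043 genes with a protein-coding transcript). Of these, 8 were higher with protodioscin (MVK, MVD, TM7SF2, SREBF2, SCAP, OSBP, MYLIP and LPCAT3; 23.5%, against 18.7%) and 5 lower (FDFT1, LSS, NSDHL, INSIG1 and SOAT1; 14.7%, against 13.4%). In 5637, 11 of 36 did (30.6%, against 32.9% of 11386 genes), so in each line the share was near that of all genes. The 11 were higher with protodioscin (HMGCS1, IDI1, SQLE, CYP51A1, TM7SF2, MSMO1, SC5D, SREBF2, INSIG1, STARD4 and LPCAT3; against 20.2% of all genes), and 0 were lower (against 12.6%). With median-ratio scaling, 6 were higher (IDI1, SQLE, SC5D, INSIG1, STARD4 and LPCAT3; 16.7%, against 10.8% of all genes) and 2 lower (OSBP and ABCA1; 5.56%, against 19.9%). Exons of 4 of the 36 genes are shared with another gene on the same strand and 16 overlap a gene on the opposite strand. Besides GGPS1 and TM7SF2, the same-strand cases were CYP51A1 and NPC2, whose partners were at or below 0.223 FPKM. These intervals compare 2 libraries and cover no spread between cultures. Reads are not independent molecules without molecular identifiers, so the intervals cover counting error only.

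The 2 lines were then set side by side for the 34 genes compared in both. Of the 16 genes below 0 in T24, 13 were above 0 in 5637 (81.3%, against 54.8% of the 4993 genes below 0 in T24). Of the 13, INSIG1 alone lay beyond 1.96 estimated standard errors of counting in both lines. In 9 of 34 the 5637 difference was higher than the T24 difference by 0.25 or more (26.5%, against 13.2% of all genes), and in 3 of 34 it was the T24 difference that was higher by that much (8.82%, against 8.69%). With median-ratio scaling the 9 became 5 (14.7%, against 9.92% of all genes). INSIG1 and HSD17B7 were the 2 genes at -0.25 or less in T24 and at 0.25 or more in 5637 (5.88%, against 1.01%). This depended on the scale. With median-ratio scaling HSD17B7 was at 0.23 in 5637, and with a pseudocount of 5 neither gene reached 0.25 in size in either line. Across the 34 genes the T24 and 5637 differences had a Pearson r of -0.11, and across all 11417 genes one of 0.12, both descriptions over genes of the same 4 libraries. Of the 13 mitochondrially encoded mRNAs, 12 were below 0 in T24 and 13 above 0 in 5637, with a median difference of -0.27 in T24 and 0.32 in 5637. The mitochondrial genome took 3.74% of FPKM in treated and 4.50% in untreated T24, and 11.9% in treated and 9.84% in untreated 5637. The epithelial markers were lower with protodioscin for 7 of 8 in T24, where all 15 summed to 1624 FPKM with protodioscin and 2028 FPKM untreated, and for 10 of 11 in 5637, with sums of 3707 FPKM with protodioscin and 4322 FPKM untreated. The part of these shifts and of the unequal depths in the enzymes' differences was not tested.

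**Figure D4:**
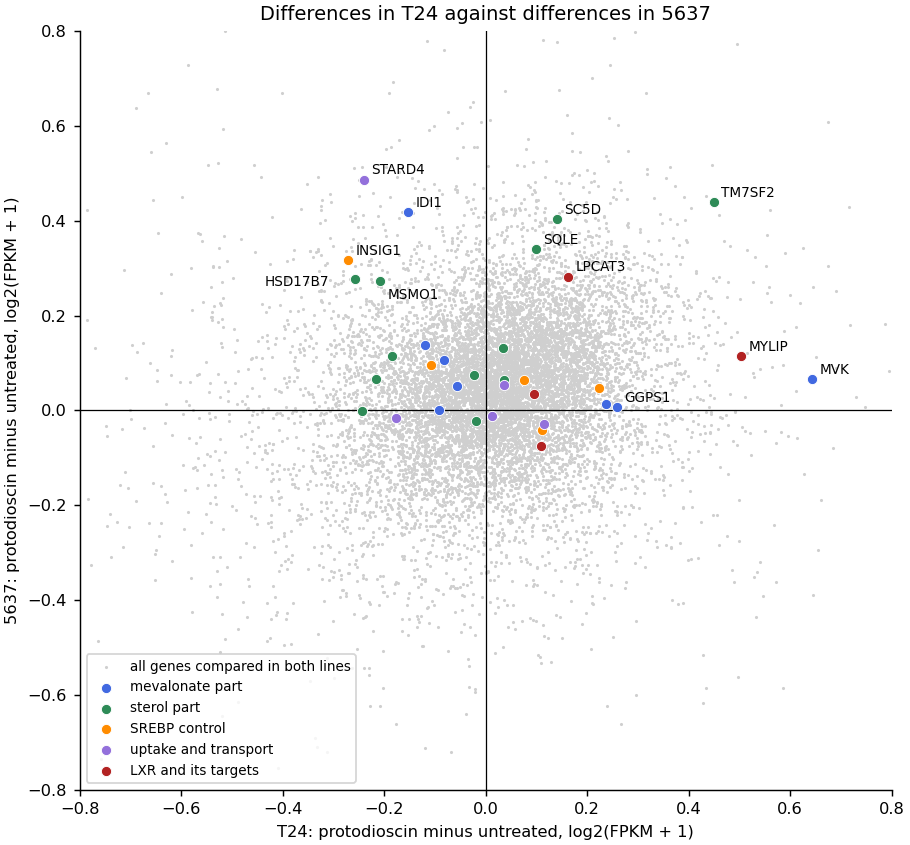
Treated minus untreated difference in log2(FPKM + 1) in T24 (horizontal) against 5637 (vertical), for 34 genes in colour by step and for all 11417 genes compared in both lines in grey; 111 genes lie outside the axes. STARD4, IDI1, INSIG1, HSD17B7 and MSMO1 lie in the upper left quadrant, and TM7SF2 is the coloured point above 0.25 on both axes.

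Whether protodioscin shifted any of the genes in the same direction in both lines was tested with limma over all 4 libraries, with line and treatment as terms. The fit leaves 1 residual degree of freedom, and the labels do not say that the cultures were independent, so its p-values speak of the spread among these libraries alone. None of the 36 genes was called at a Benjamini-Hochberg adjusted p below 0.05 by limma, against 0% of 12893 genes tested. At an unadjusted p below 0.05 limma gave 4 of 36 genes (11.1%, against 9.52% of all genes), namely TM7SF2, LPCAT3, SQLE and SC5D, each higher with protodioscin. The lowest limma adjusted p was 0.482, for TM7SF2, with a coefficient of 0.44 and a standard error of 0.10. LPCAT3 had a coefficient of 0.22 with a standard error of 0.079, SC5D one of 0.27 with 0.10, and SQLE one of 0.22 with 0.083. INSIG1, whose lines differed in direction, had a coefficient of 0.023 with a standard error of 0.15.

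The difference between the lines was larger than that between the treatments. With limma, 25 of 36 genes were called between T24 and 5637 (69.4%, against 68.9% of all genes), 15 higher in T24 (against 35.1% of all genes) and 10 lower (against 33.9%), so the share of these genes called was near that of all genes. With no filter on low values limma called 14 of the 36. ABCG1 and ABCA1 had the largest coefficients, T24 minus 5637 on the log2(FPKM + 1) scale, at -2.13 (SE 0.11, limma adjusted p = 2.04e-05) and -1.72 (SE 0.13, limma adjusted p = 8.12e-05). These 2 exporters are low in T24, where a pseudocount of 1 understates the fold.

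Of the 20 synthesis enzymes, limma called 10 higher in T24 (against 35.1% of all genes) and 5 lower (against 33.9%), and 5 were not called. MVD had the largest coefficient among them, 1.09 (SE 0.084, limma adjusted p = 9.8e-05), followed by TM7SF2 at 0.88, ACAT2 at 0.73 and SQLE at 0.70. The values of TM7SF2 and ACAT2 are uncertain, since their exons overlap those of VPS51 and TCP1. EBP, at -0.92, and LBR, at -0.55, led the 5 that were lower in T24, which also held FDPS, GGPS1 and CYP51A1. Neighbouring steps thus went opposite ways: the isomerase EBP was lower in T24, and SC5D and DHCR7, which act after it, were higher in T24, at 0.38 and 0.37.

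SREBF2 (0.49) and SREBF1 (0.32) were higher in T24 and INSIG2 lower (-0.71), while INSIG1, at 0.37, missed the threshold (limma adjusted p = 0.0678). The value of SREBF1 is uncertain, since its exons overlap those of the more abundant RAI1 on the opposite strand. RAI1 was also higher in T24, at 21.2 and 20.1 FPKM in treated and untreated T24 and at 12.5 and 12.8 FPKM in treated and untreated 5637. STARD4 was higher in T24 (0.80) and so was OSBP (0.25). NPC2, at -0.94, and SOAT1, at -0.58, were lower in T24. The receptor NR1H3 was higher in T24 (0.50), the opposite direction to the exporters. Its value is uncertain, since its exons overlap those of the more abundant ACP2 on the opposite strand and reads could be mixed. ACP2 was also higher in T24, at 31.9 and 28.7 FPKM in treated and untreated T24 and at 24.1 and 21.8 FPKM in treated and untreated 5637. The lines also differ in the KRT5 and TP63 levels and in the share of mitochondrial RNA given above, and the part of these in the line differences was not tested.

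**Figure D5:**
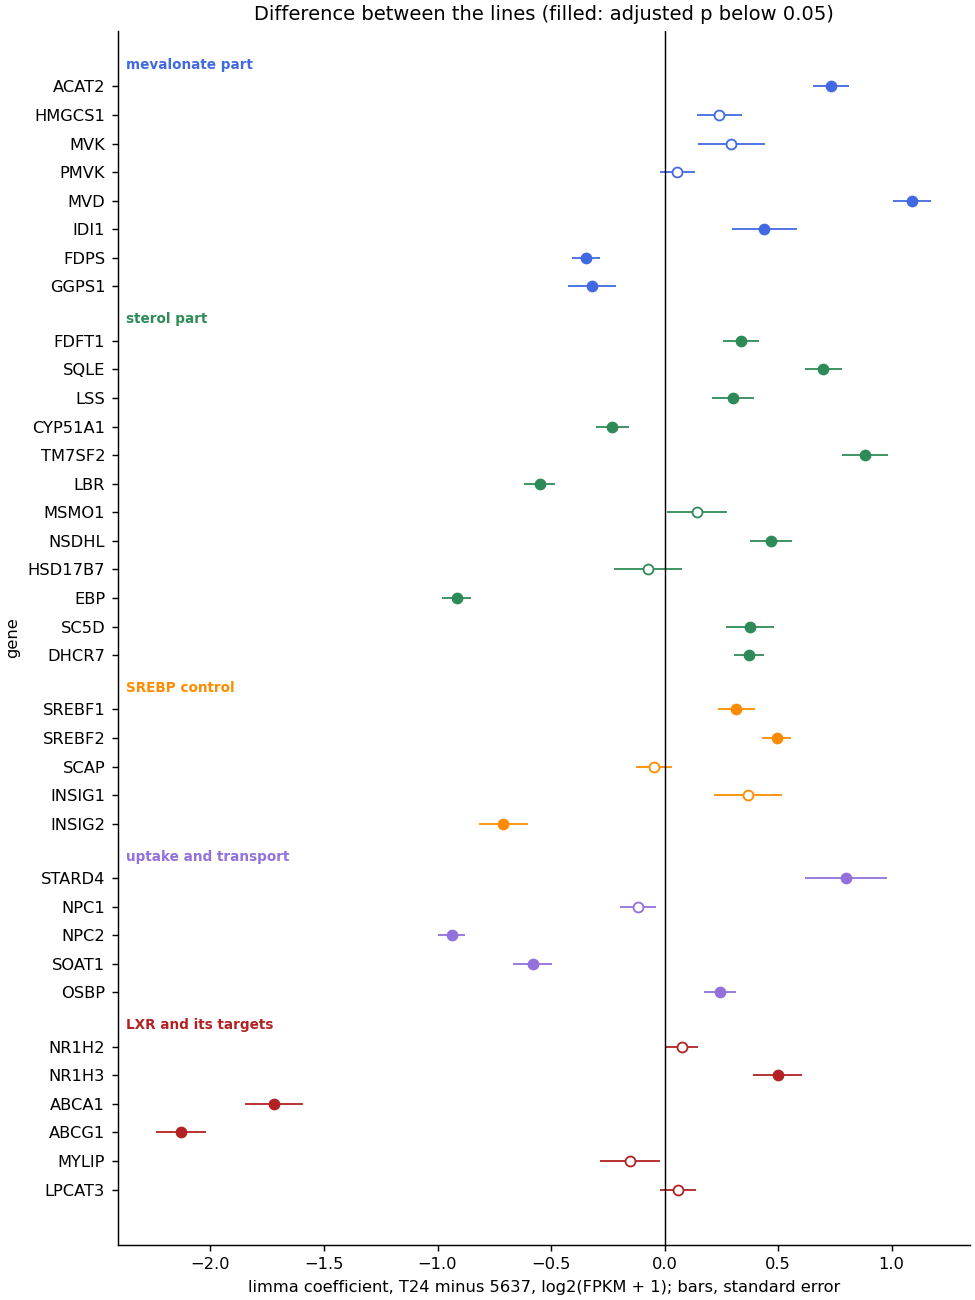
limma coefficient for T24 minus 5637 in log2(FPKM + 1) for each of the 36 genes, from the fit over all 4 libraries; bars are standard errors and filled points have an adjusted p below 0.05. ABCG1 and ABCA1 lie near -2.13 and -1.72, and the enzymes lie on both sides of 0, between -0.92 and 1.09.

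Other genes of the same pathways, in 4 lists, were read beside the 36. None of these lists held a gene called for treatment by limma, against 0% of all genes. At an unadjusted p below 0.05 limma gave 9.52% of all genes. In the isoprenoid branches it gave 1 of 14 (higher), and in SREBP cleavage and sterol-regulated degradation 2 of 12 (1 higher, 1 lower). For sterol transfer, ester breakdown and lipoprotein receptors it gave 2 of 17 tested (both lower). Among RXR partners, other LXR targets and oxysterol enzymes it gave 0 of 8 tested. In the isoprenoid branches the median was 0.042 in T24 and 0.063 in 5637. DOLK, the dolichol kinase, was at 16.0 and 12.5 FPKM in treated and untreated T24 and at 16.3 and 14.8 FPKM in treated and untreated 5637. ICMT, the methyltransferase of prenylated proteins, was at 51.2 and 45.9 FPKM in treated and untreated T24, and at 35.9 and 33.0 FPKM in treated and untreated 5637. PDSS1, which builds the ubiquinone tail, and RABGGTB, a subunit of the enzyme that prenylates Rab proteins, were lower with protodioscin, by -0.14 and -0.23 in T24 and by -0.17 and -0.052 in 5637. RABGGTB shares exons with ACADM and with small nucleolar RNAs and is uncertain.

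The SREBP cleavage and degradation list had medians of 0.045 in T24 and 0.071 in 5637. In T24, 9 of 12 genes were above 0 (against 56.0% of all genes), and in 5637, 10 of 12 (against 61.5%). ERG28, a scaffold of the C4 demethylation enzymes, was at 14.4 and 12.7 FPKM in treated and untreated T24 and at 12.0 and 9.71 FPKM in treated and untreated 5637. SPRING1, which matures the protease that first cuts SREBP, differed by 0.089 in T24 and 0.21 in 5637. Both were higher with protodioscin in each line. ERLIN1, a sterol-sensing partner in degradation at the endoplasmic reticulum, was lower with protodioscin, at 31.2 and 39.8 FPKM in treated and untreated T24 and 15.5 and 16.9 FPKM in treated and untreated 5637, and is uncertain, since it shares exons with CHUK. MBTPS2, the second SREBP protease, differed by -0.090 and 0.0071.

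The transfer, ester and receptor list had medians of 0.018 in T24 and 0.027 in 5637. GRAMD1C, a membrane sterol transfer protein, differed by 0.29 in T24 and 0.14 in 5637. SCARB1, the HDL receptor, was lower with protodioscin, at 8.08 and 9.18 FPKM in treated and untreated T24 and 11.9 and 14.3 FPKM in treated and untreated 5637. GRAMD1B, a relative of GRAMD1C, was at 0.0183 and 0.0524 FPKM in treated and untreated T24 and at 1.03 and 1.88 FPKM in treated and untreated 5637 (-0.51). GRAMD1B is too low in T24 for a direction to be read there. Of the RXR and LXR list, RXRB, a partner of LXR, differed by 0.14 in T24 and 0.26 in 5637, and RXRA by 0.15 and -0.27. CYP27A1, the sterol 27-hydroxylase, was at 0.699 and 0.487 FPKM in treated and untreated T24 and at 5.76 and 5.30 FPKM in treated and untreated 5637, lower in T24 as the exporters were (-2.04, limma adjusted p = 2.13e-05).

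Set by promoter, the 23 genes with CCAAT had a median difference of 0.036 in T24 and 0.076 in 5637, and the genes without it, 8 compared in T24 and 9 in 5637, had medians of 0.023 and 0.034. In 5637, 8 of the 23 with CCAAT were at 0.25 or more and 0 of the 9 without, against 9.31% of all genes. In T24, 4 of the 23 and 0 of the 8 were, against 8.00% of all genes. At such shares, so few genes without CCAAT can hold 0 whatever their promoters. No test was made of this split, and the letters are a description.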

How the data were processed

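RNA was extracted with a Qiagen kit, made into libraries with the Illumina TruSeq RNA v2 kit and read as 150-base pairs, per the labels' protocols. The authors deposited FPKM per gene for 4 libraries, 1 per line and treatment, and the submitters' processing notes name Trimmomatic, HISAT2, StringTie and GRCh38. Their versions and settings and the annotation were not given in the sources used here. Read totals are not in the table, so depth was estimated from the value of 1 read, the commonest FPKM times length among low genes.

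From the FPKM, log2(FPKM + 1) differences were computed with pandas 2.3.3 for genes that reached 1 FPKM in either library of a line. limma 3.58.1 (R 4.3.3, trended prior variance) was fitted with line and treatment over 12893 genes that reached 1 FPKM in 2 or more libraries. Benjamini-Hochberg adjustment was over all of them. The fit was also run on simulated data with the same change in both lines, where recovery was required only for log2 changes of 2 or more. Differences of the 36 genes were smaller, so that run does not show that changes of their size would be found. GENCODE 29 gave coordinates, and bedtools 2.31.1 found exon overlap: 4 of the 36 genes share exons on the same strand and 16 on the opposite strand. Named were all 36 genes and, of each further list, the 2 genes with the highest and the 2 with the lowest mean difference. Of these, 2 genes are not reported here. The genes, lists and rules were chosen with earlier results of these data known. Alternatives were pseudocounts of 0.1 and 5, no filter, a filter at 5 FPKM, TPM, median-ratio scaling, leaving out genes that share exons and a fit without line. A planned comparison of paralog proteins was not run.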

Additional observations from a re-analysis of the deposited data

Results flagged for a closer look

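INSIG1 and HSD17B7 differed in direction between the lines, each by 0.25 or more in both. With a pseudocount of 5 neither reached 0.25 in size in either line, and with median-ratio scaling HSD17B7 did not in 5637. The T24 difference minus the 5637 difference was -0.589 for INSIG1 and -0.536 for HSD17B7 on the log2(FPKM + 1) scale. Each group had 1 library, so the difference was not tested. INSIG1 lay beyond 1.96 estimated standard errors of counting in each line, and HSD17B7 in neither.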

How the results depend on the processing

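Of 288 gene and setting pairs within the lines, 287 moved by less than their 95% counting error, and MYLIP in T24 was at 0.20 with a pseudocount of 5. The sign changed in 11, all in 5637 and none above 0.054 in size as reported: 4 genes with TPM and 7 with median-ratio scaling. Counts depended more on the scale. With a pseudocount of 5, 2 genes in T24 and 2 in 5637 were at 0.25 or more, 0 in each were at -0.25 or less, and in 5 the 5637 difference was higher than the T24 difference by 0.25 or more, as in 5 with median-ratio scaling, where 6 genes in 5637 lay above and 2 below the counting interval. With a filter at 5 FPKM, 1 gene in T24 and 0 in 5637 were at -0.25 or less. With same-strand exon-sharing genes left out, 2 genes in T24 were at 0.25 or more and the T24 median was -0.021. limma called 2 genes of all for treatment without those genes, and 2 with a pseudocount of 0.1, and 0 of the 36 in every alternative run. Between the lines limma called 14 of the 36 with no filter. Without a line term, 0 of the 36 had an unadjusted treatment p below 0.05. The counts of enzymes below 0 in T24 (11 to 12) and above 0 in 5637 (14 to 18), and of genes lower in T24 and higher in 5637 (10 to 13), and those beyond the counting interval, were checked after seeing the data. The line term of the limma fit pairs the libraries by cell line. The labels carry no replicate numbers for any other pairing, and leaving out a library would leave no residual degree of freedom. Depth limits the lowest genes, with counting errors up to 0.26.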
